A study of Ovis aries with 16 samples.

Results

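The genes of the ovine major histocompatibility complex (MHC) were followed in the hippocampus of late-gestation fetal sheep, with 1 one-color array for each of 16 fetuses. Members were the non-control probes whose annotation held MHC or histocompatibility, or whose gene name began with OLA, OVAR or BOLA. PSMB8, a proteasome subunit, was left out. The rule took 27 of 15008 probes, of which the annotation placed 15 in class I, 11 in class II and 1 at MR1, a class I-related gene.

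All fetuses were chronically catheterized, and tissue was taken at 24 h. The normoxia control group (NC, n = 3) and the hypoxia control group (HC, n = 5) received no ketamine. The normoxia plus ketamine group (NK, n = 4) and the hypoxia plus ketamine group (HK, n = 4) were given ketamine, an NMDA receptor blocker, at 3 mg/kg into a vein before the stimulus. Hypoxia lasted 30 min, was produced by nitrogen in the trachea of the ewe, and so lowered oxygen in ewe and fetus alike. It was followed by 23.5 h of normoxia. The study used mostly twin fetuses and assigned pregnancies, not single fetuses, to normoxia or hypoxia. The labels do not say which fetuses shared a ewe, and the tests treat all 16 as independent.

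MHC class I molecules are a polymorphic heavy chain held by beta-2 microglobulin (B2M), and they present peptides cut by the proteasome to CD8 T cells. Class II molecules pair an alpha and a beta chain, here of the DR and DQ loci, and present peptides taken up from outside the cell to CD4 T cells. In brain, class II is known mainly from microglia and other antigen presenting cells, class I is usually low in neurons, and interferons raise both. Because animals differ in their MHC alleles, a probe made to 1 allele reads the amount of transcript and its match to the probe together, and these cannot be told apart here. In a block of tissue, more cells of a type and more RNA per cell cannot be told apart either.

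The probes are 60 bases long, and several differ from each other by only a few bases. The pair below shows how close an alpha chain probe of DQA1 lies to one of DQA2, with capitals at the 4 bases that differ.
OVAR-DQA1: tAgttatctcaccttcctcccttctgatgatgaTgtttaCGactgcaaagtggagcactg
M93431: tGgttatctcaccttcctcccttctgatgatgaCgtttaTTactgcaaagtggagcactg
The next pair, from the end of the coding sequence of class I heavy chains, also differs at the 4 bases in capitals.
OVAR: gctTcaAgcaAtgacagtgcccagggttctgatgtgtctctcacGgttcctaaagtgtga
U03092: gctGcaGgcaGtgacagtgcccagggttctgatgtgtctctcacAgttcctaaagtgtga
The DRB1 probe DQ659131, a beta chain probe to which the results below return, is shown with the DRB1 probe DQ659127, which lies elsewhere in the transcript; neither has capitals, since they are not aligned.
DQ659131: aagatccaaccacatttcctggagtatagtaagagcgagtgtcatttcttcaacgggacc
DQ659127: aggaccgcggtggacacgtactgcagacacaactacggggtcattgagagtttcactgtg
The sequences are those of the array design, 5′ to 3′, and the array annotation gives no chromosome position for them. The signals of such near-identical probes ran together over the 16 arrays, with a correlation of 0.99 for the DQ pair and 0.98 for the class I pair, as a description of probes that may bind the same transcripts. Of the 11 overlapping pairs, 9 had a correlation of 0.95 or more, while the class I probe M34676 had one of 0.64 with M34672, with which it shares 56 positions, and of 0.64 with M34674, with which it shares 51. Counts of probes below are therefore not counts of independent genes.

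Signals are given as log2 values relative to the 75th percentile of the array, so that a value of 0 is as bright as that percentile. The 75th percentile itself lay between 882 and 1199 intensity units. Of the 27 members, 26 were well above background on at least 3 of the 16 arrays and were tested, among 12543 probes in all. All 15 class I probes and 9 of the 11 class II probes were well above background on all 16 arrays. DYA, an alpha chain of the ruminant DY locus, did not rise well above background anywhere. MR1 (TC2807), which presents small metabolites, was so on 3 arrays, and the DQA1 probe A_70_P016751 on 12. A difference that met an unadjusted p under 0.05 in limma is said to meet the criterion, and adjusted p is Benjamini-Hochberg over the 12543 probes.

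Array HC1 stood apart from the rest of its group on these genes. It was the lowest of all 16 arrays on 9 of 15 class I probes and on 5 of 10 class II probes tested, while its 75th percentile of 1186 units lay within the range of the others. Its class I probes had a median 1.19 below the NC mean (log2 difference of -1.19). In HC2, HC3, HC4 and HC5 the same median was 2.47, 1.49, 1.13 and 0.28 above it. The HK arrays were spread in a similar way, with medians of -0.06, 1.99, 0.39 and 0.76 in HK1 to HK4. The NC and NK arrays all lay between -0.49 and 0.39. HC2 was the highest array on 10 class I probes, and HK2 on 9 class II probes. The counts of MHC and antigen presentation probes between hypoxia and normoxia below are therefore also given without HC1.

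The tissue was checked against its own markers. Of 14 markers of hippocampal neurons, 6 had a probe, and their summed log2 signal lay between 4.98 and 5.51 on the NC, NK and HK arrays and between 2.80 and 5.34 in HC. HC5 was the low array. NEUROD1, a transcription factor of granule neurons, read -6.47 in HC5 against 0.24 to 0.89 in the other HC arrays on its probe A_70_P031626, and -1.82 in HK2. SST, the interneuron peptide somatostatin, read 1.78 in HC5 against 4.06 to 4.84 in the other HC arrays. Of the 11 tested neuron probes, 6 met the criterion as lower in HC against NC, against 786 of all 12543 probes. They were those of the glutamate receptor subunits GRIN1, GRIA1, GRIA2 and GRIA4, with 2 probes for some of these genes. The part of these neuron markers in the MHC differences was not tested. Without HC5 the count of MHC probes in HC against NC, given below, was the same, and the class I and class II medians were 0.99 and 0.63. The astrocyte markers with a probe, 2 of 6, had a summed level between 5.64 and 6.28 over all groups. Such sums mostly follow the brightest gene, SST for neurons and AQP4 for astrocytes. Choroid plexus markers, 4 of 6 with a probe, varied far more, from -0.10 to 6.29 in HC and from 0.58 to 6.42 in NC. Of these, TTR read -1.43 in HC1, 5.37 in HC2 and 6.28 in HC5, 0.18 in NC1 and 6.41 in NC2, and 5.65 in HK2 and 0.16 in HK3. The part of choroid plexus in the MHC differences was not tested.

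**Figure D1:**
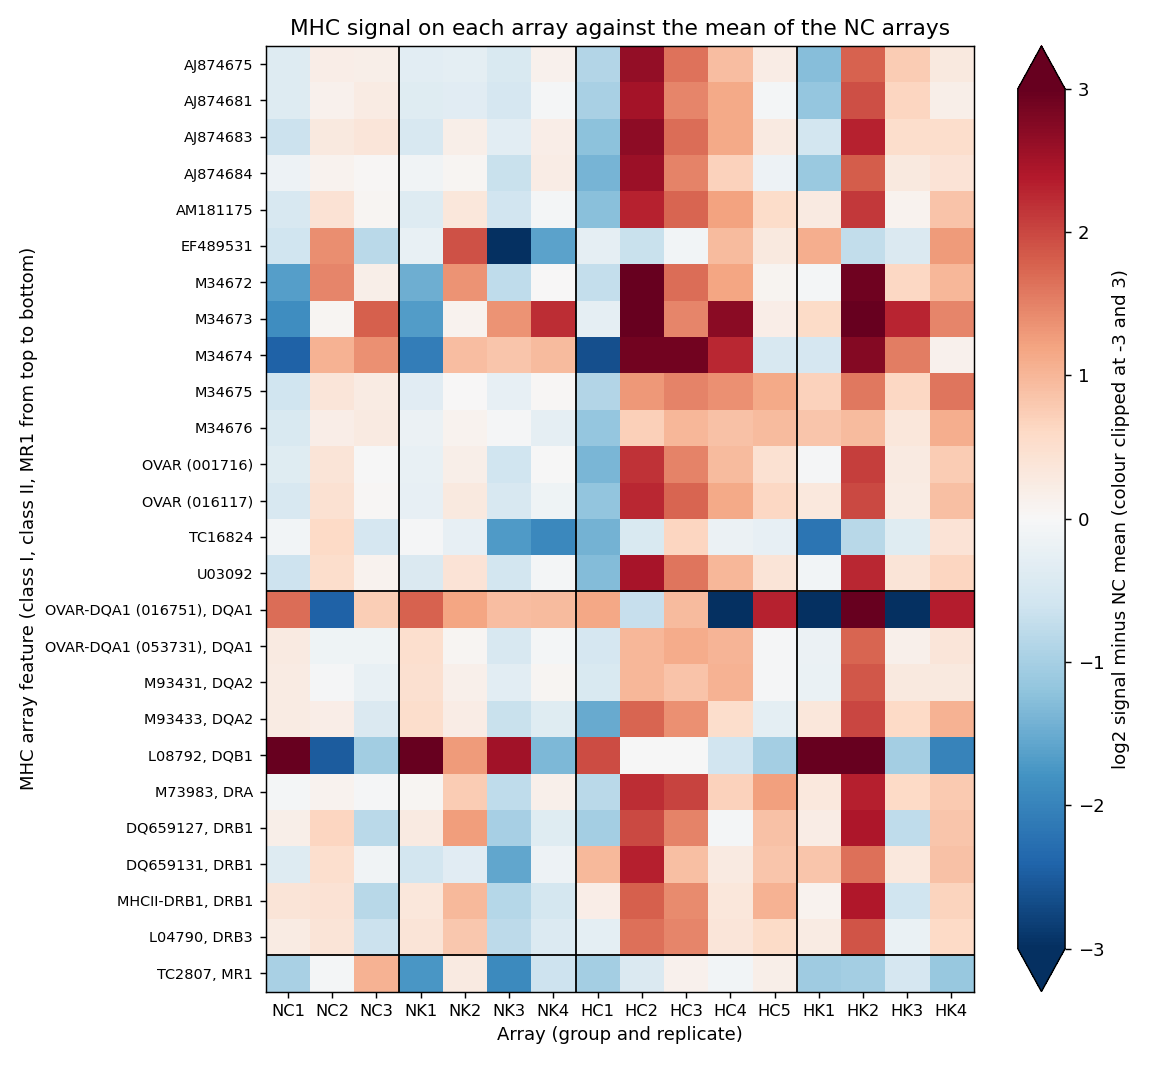
Log2 signal of the 26 tested MHC probes (rows, class I above, class II in the middle, MR1 at the bottom) on the 16 arrays (columns), as the difference from the mean of the NC arrays, with the color clipped at -3 and 3. HC2, HC3 and HK2 are red over most rows, while HC1 is blue over most class I rows, where its median is -1.19.

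Hypoxia was compared with normoxia in the absence of ketamine (HC against NC) to ask whether transient hypoxia had changed MHC transcripts a day later. MHC signal was higher on average in HC for 23 of 26 probes, with a median log2 difference of 0.79 against -0.03 over all probes tested, but 1 of 26 met the criterion. Of all probes, 10.8% met it in either direction and 4.54% as higher, so the count of MHC probes was not above that background. No MHC probe had groups that did not overlap, against 2.89% of all probes that were higher in every HC than in every NC array. For class I, 14 of 15 probes were higher, with a median of 0.89, and none met the criterion. For class II, 9 of 10 were higher with a median of 0.58. Without HC2, the brightest HC array on class I, these medians were 0.46 and 0.37, and without NC1 the class I median was 0.57.

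The spread within HC was wide, with HC1 at its low end. M34675, a class I heavy chain, had values of 3.63, 4.60 and 4.48 in NC1 to NC3 and of 3.35, 5.54, 5.72, 5.61 and 5.38 in HC1 to HC5. The other HC arrays were above all NC arrays and HC1 was below them. The log2 difference was 0.89 with a 95% interval of -0.10 to 1.87 (limma, adjusted p = 0.526). M34676, another class I probe, read 4.48, 5.15 and 5.21 in NC and 3.78, 5.66, 5.94, 5.83 and 5.89 in HC, a log2 difference of 0.47 (-0.39 to 1.33). The same arrangement was seen, with 4 HC arrays above and HC1 below. M34675 and M34676 overlap at 57 positions with 4 mismatches and had a correlation of 0.95. They are therefore not independent measurements. M34676 was marked saturated on 4 HC and 2 HK arrays, and M34675 on 2 HC arrays and 1 HK array, so the upper values of both are compressed.

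Without HC1, 10 of the 26 MHC probes met the criterion in HC against NC, all higher, against 5.71% of all probes that met it as higher. These were 8 class I and 2 class II probes. The class I median became 1.36 and the class II median 0.93. The HC and NC arrays then did not overlap for 7 MHC probes, against 5.36% of all probes. M34675 had a log2 difference of 1.33 ± 0.28 (SE; adjusted p = 0.101), and M73983, the DR alpha chain, one of 1.54 ± 0.48 (adjusted p = 0.197). No MHC probe reached an adjusted p under 0.05. HC1 was set aside after its values had been seen, and leaving out another array moved the count the opposite way, to 0 without HC2, NC1 or NC3.

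DQ659131, the DRB1 probe shown above, was the MHC probe that met the criterion with all arrays. Its log2 signal was -5.33, -4.45 and -5.04 in NC1 to NC3 and -3.96, -2.62, -4.03, -4.67 and -4.12 in HC1 to HC5. Of the HC arrays only HC4 lay below the highest NC array, and HC1 was high here, unlike on the class I probes. The log2 difference was 1.06 with an interval of 0.14 to 1.98, a fold of 2.09 (adjusted p = 0.381). The probe was dim, between 11.1 and 195.7 intensity units over the 16 arrays. Its difference was 0.22 in the values the authors deposited, in which low signals were raised by an offset.

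**Figure D2:**
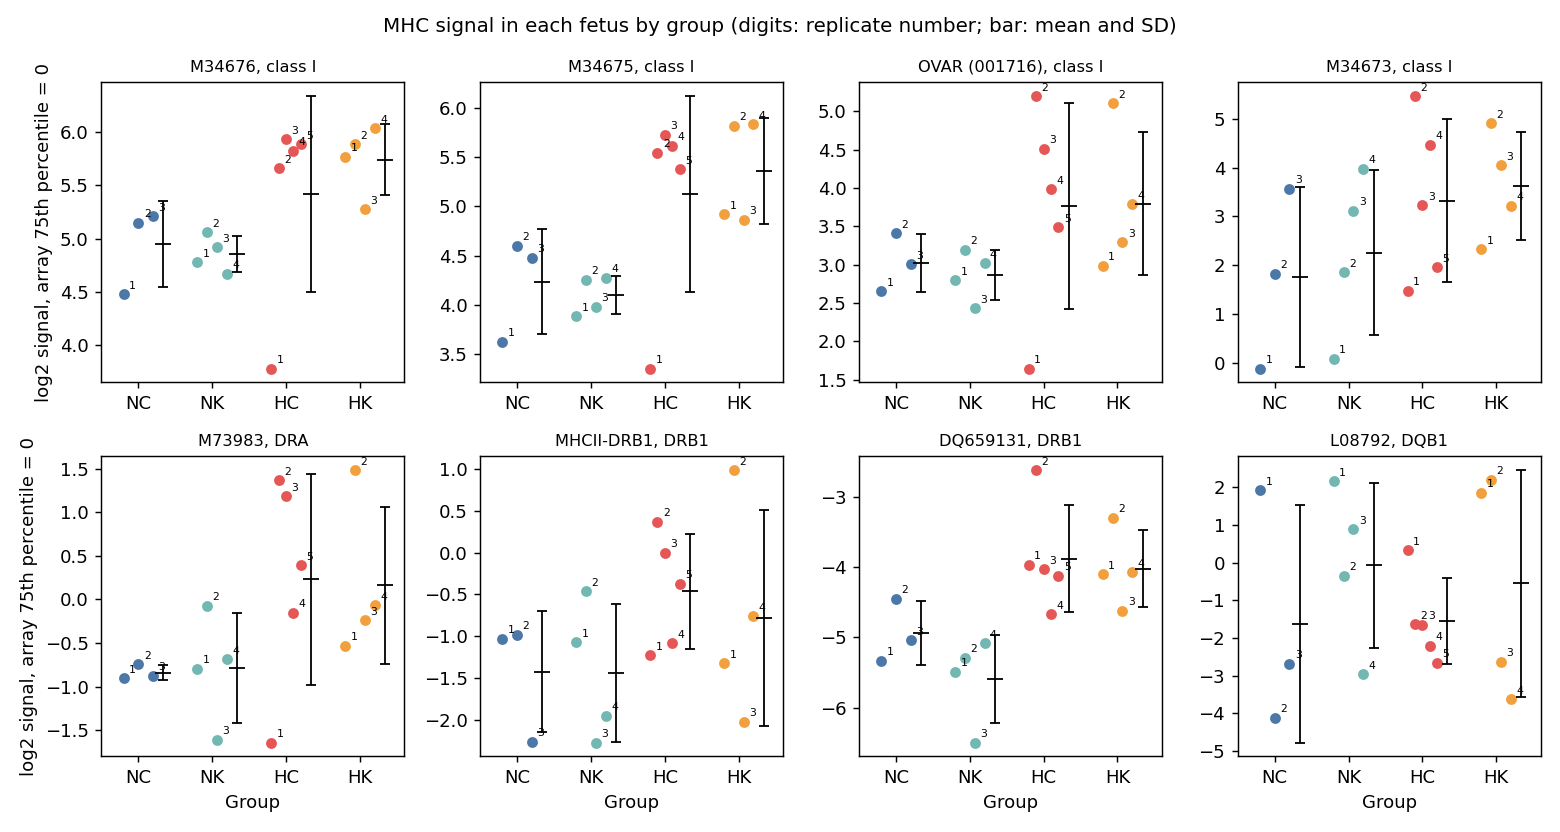
Log2 signal (vertical axis, array 75th percentile at 0) of 4 class I and 4 class II probes in the NC, NK, HC and HK groups, with 1 point per fetus, its replicate number beside it, and a bar for the mean and SD. HC1 is the lowest HC point for M34676 (3.78), M34675 (3.35) and the OVAR probe A_70_P001716, but not for DQ659131 (-3.96). The OVAR probe whose sequence is given above is a different one. The L08792 points overlap between all groups.

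Hypoxia was also compared with normoxia among the ketamine-treated fetuses (HK against NK). Its differences rest on the HK and NK arrays alone, while the spread behind its intervals and p-values was estimated over all 4 groups. All 15 class I probes and 8 of 10 class II probes were higher in HK, with medians of 0.93 and 0.64 against -0.01 over all probes. Of the 26 members, 3 met the criterion, all of them higher, where 5.26% of all probes met it in either direction and 2.81% as higher. The same 3 had groups that did not overlap, against 1.86% of all probes that were higher in every HK array.

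DQ659131 had the largest difference of these. It read -5.49, -5.29, -6.50 and -5.08 in NK1 to NK4 and -4.10, -3.29, -4.62 and -4.07 in HK1 to HK4. All HK arrays exceeded all NK arrays, and the log2 difference was 1.57 (0.68 to 2.46), a fold of 2.97 (adjusted p = 0.836). M34675 read 3.88, 4.26, 3.98 and 4.28 in NK and 4.92, 5.82, 4.86 and 5.83 in HK, a log2 difference of 1.26 (0.30 to 2.21; adjusted p = 0.9). M34676 read 4.78, 5.06, 4.92 and 4.67 in NK and 5.77, 5.89, 5.28 and 6.04 in HK, a log2 difference of 0.89 (0.06 to 1.72; adjusted p = 0.938). The NK arrays were close together on both class I probes, with an SD of 0.20 for M34675 and 0.17 for M34676. Both probes overlap in sequence, as given above, and are not independent measurements. These adjusted p-values mean that single MHC probes could not be called once all probes were taken into account. With normexp background correction none of the 3 met the criterion.

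Without HC1, whose spread enters the fit, the differences stayed as they were and 6 of 26 MHC probes met the criterion in HK against NK, against 3.15% of all probes as higher. HK1 had the lowest class I median of the HK arrays, at the level of NC. Without HC1 and HK1, 12 of 26 MHC probes met the criterion in HK against NK, all higher, where 3.41% of all probes met it as higher. The groups did not overlap for 9 of the 26, against 3.92% of all probes. Without HK2, the brightest HK array, the class I median fell from 0.93 to 0.49 and the class II median from 0.64 to 0.09. The class II median was 0.37 without NK3 and 0.99 without HK3.

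**Figure D3:**
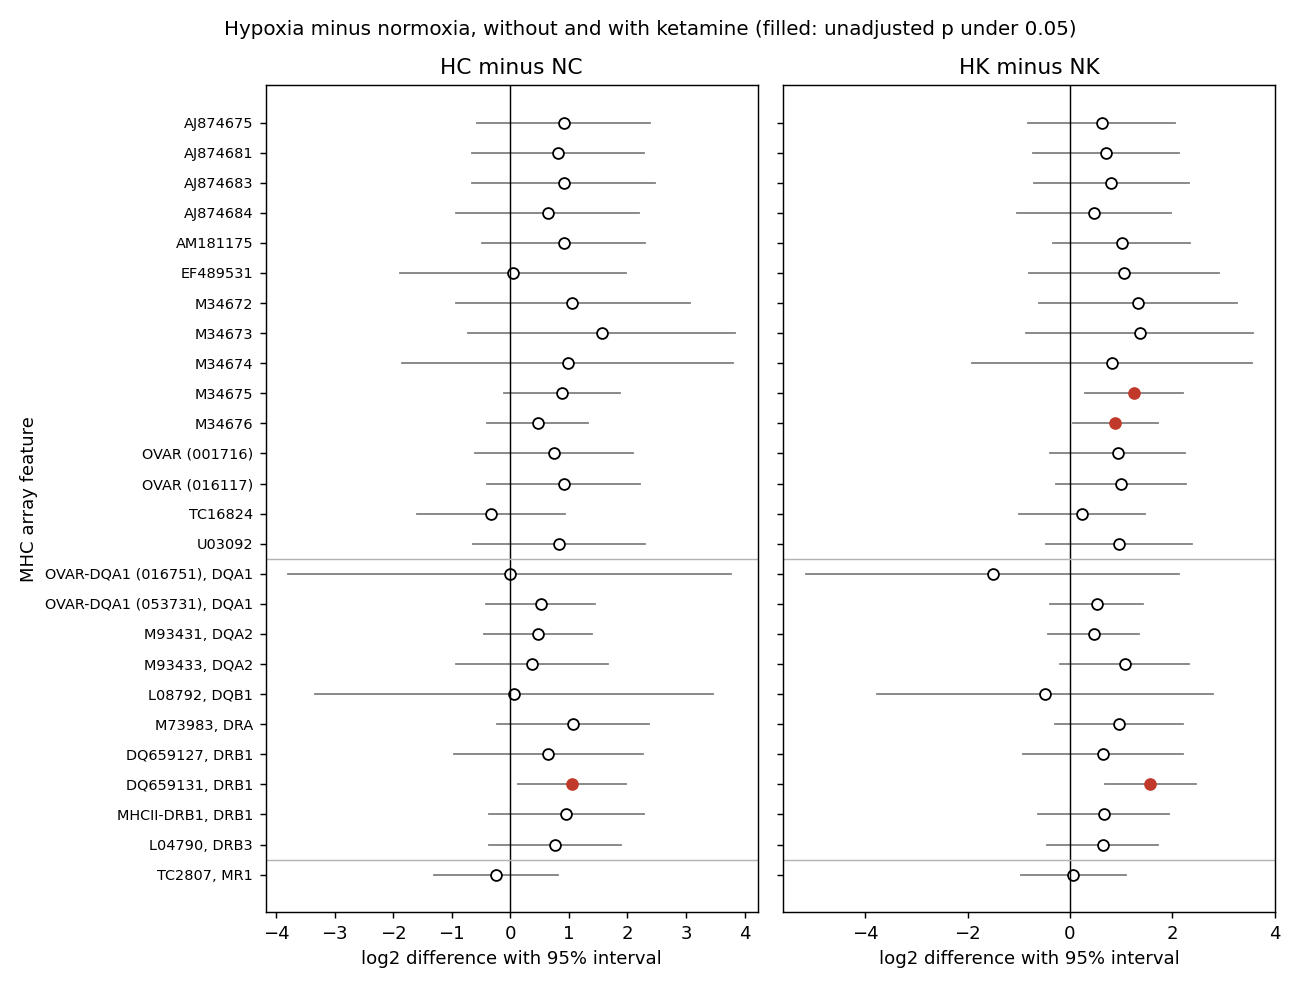
Log2 difference between hypoxia and normoxia with its 95% interval for the 26 tested MHC probes, without ketamine (left, HC minus NC) and with ketamine (right, HK minus NK), with probes that met an unadjusted p under 0.05 filled. Most points lie to the right of 0 in both panels, and most intervals cross it, with DQ659131 filled in both.

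Among the class II genes, the DR alpha chain M73983 was uniform in NC, at -0.90, -0.75 and -0.87, and spread in HC, at -1.64, 1.37, 1.18, -0.16 and 0.39. Its log2 difference was 1.07 (-0.22 to 2.36) in HC against NC and 0.95 (-0.30 to 2.20) in HK against NK. The DRB1 probe MHCII-DRB1 had log2 differences of 0.96 and 0.66 in the same comparisons, DQ659127 of 0.65 and 0.64, and the DRB3 probe L04790 of 0.76 and 0.64. All 5 DR probes thus had positive differences in both comparisons, and only DQ659131 met the criterion. MHCII-DRB1, DQ659127 and L04790 ran together with correlations of 0.94 to 0.97. Without HC2 and HK2 their differences in HK against NK were 0.07, 0.06 and 0.22. Those of M73983 and DQ659131 were then 0.51 and 1.33. The DQ alpha chain probes differed by 0.37 to 0.52 in HC against NC, apart from A_70_P016751, at -0.01 with an interval of -3.79 to 3.76. That probe was not well above background on 1 NC, 1 HC and 2 HK arrays.

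Ketamine was compared with its absence in normoxia (NK against NC, which shares the NC arrays with HC against NC) and in hypoxia (HK against HC, which shares the HC arrays). In NK against NC, 8 of 26 MHC probes were higher, the median log2 difference was -0.11, and none met the criterion, which 1.78% of all probes met. In HK against HC, 12 of 26 were higher, the median was -0.04, and none met it, against 4.74% of all probes. DQ659131 differed by -0.65 (-1.61 to 0.31) in NK against NC and by -0.14 (-0.99 to 0.70) in HK against HC. M34675 differed by 0.24 (-0.67 to 1.14) in HK against HC. Changes by ketamine that lie within these intervals were not detectable with these arrays. The interaction of ketamine with hypoxia was positive for 13 of 26 probes and negative for 13, had a median of -0.01, and met the criterion for none, against 3.44% of all probes.

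NC and NK arrays with the same replicate number in the labels deviated together from their group means over all probes. For number 3 the correlation lay within the range seen between same-numbered normoxia and hypoxia arrays. With the replicate numbers as a block within each oxygen group, DQ659131 met the criterion as lower in NK against NC (log2 difference -0.82, adjusted p = 1). In HK against HC, the class I probes AJ874681 (-0.63, adjusted p = 0.339) and AJ874675 (-0.69, adjusted p = 0.266) did so as lower. With the same block, 3.07% of all probes met the criterion in NK against NC and 9.58% in HK against HC, in either direction, so neither count of MHC probes stood clear of that background. The last 2 probes differ at 3 of 60 bases and ran together with a correlation of 0.99, so they are close to 1 measurement.

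The MHC probes varied between fetuses of 1 group far more than most transcripts did. The within-group SD, pooled over the groups and moderated by limma, had a median of 0.94 for class I and 0.83 for class II, against 0.25 over all probes tested. M34674, a class I heavy chain, had a moderated SD of 1.80, larger than that of 99.7% of all probes. Its values were 0.43, 3.90 and 4.22 in NC, 0.77, 3.77, 3.68 and 3.79 in NK, 0.20, 5.73, 5.74, 5.11 and 2.36 in HC, and 2.35, 5.60, 4.38 and 2.98 in HK. The lowest array thus differed from the highest by at least 5.54 log2 units, since 1 of the HC arrays was marked saturated on this probe. L08792, a DQ beta chain, ranged over 6.32 log2 units, from -4.11 in NC2 to 2.21 in HK2, and between -2.65 and 0.34 in HC.

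Some probes gave similar values on NC and NK arrays of the same number. M34672 read 0.74, 3.87 and 2.58 in NC1 to NC3 and 0.93, 3.74 and 1.63 in NK1 to NK3. M34673 read -0.11, 1.83 and 3.57 in NC and 0.09, 1.86 and 3.12 in NK, in the same order. L08792 also kept 1 order of the numbers, at 1.92, -4.11 and -2.68 in NC and 2.17, -0.35 and 0.89 in NK, but replicates 2 and 3 read much higher in NK than in NC. Over the 26 MHC probes the median absolute difference between arrays of the same number was 0.18, 0.28 and 0.59 for NC and NK, and between 0.21 and 0.98 for the 9 pairs of different numbers. For HC and HK it was between 0.37 and 1.03 for the same number and between 0.36 and 2.88 otherwise. In every group the arrays numbered 1 and 2 were on slide 1 and the others on slide 2. Arrays of the same number thus always shared a slide, while many pairs of different numbers did not. The study does not tie replicate numbers to pregnancies. Whether paired arrays came from twins, and the part of the slide in their likeness, was not tested.

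**Figure D4:**
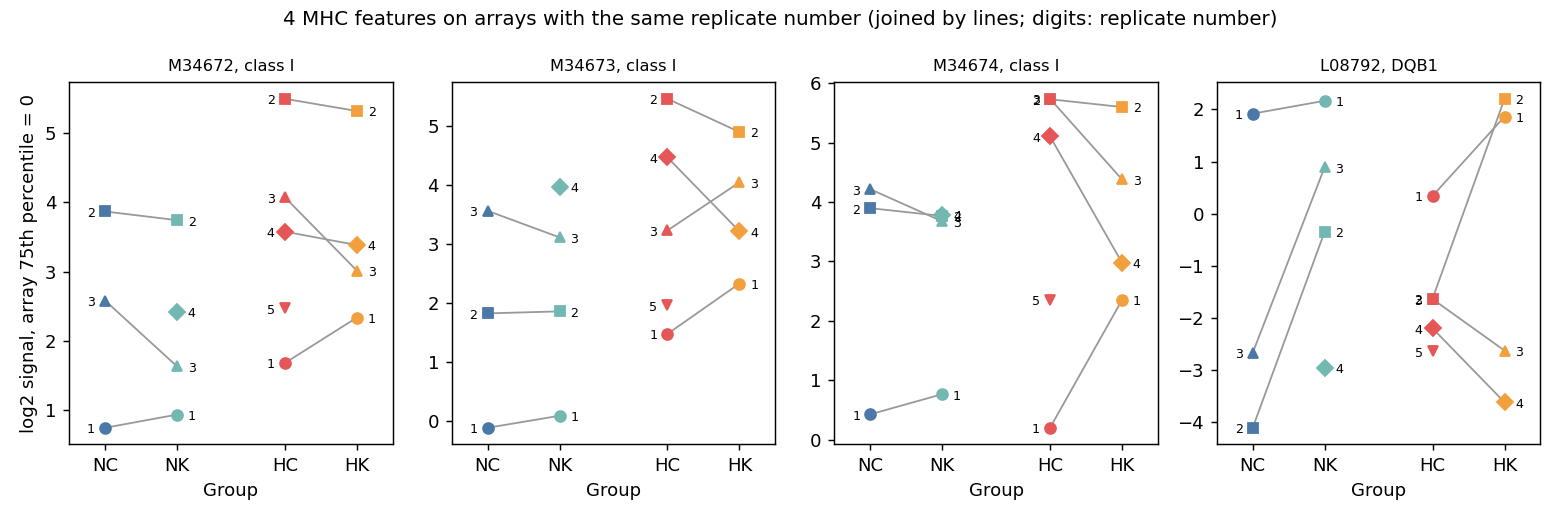
Log2 signal (vertical axis, array 75th percentile at 0) of the class I probes M34672, M34673 and M34674 and the DQB1 probe L08792 on each array, with lines joining arrays of the same replicate number in NC and NK (left in each panel) and in HC and HK (right). Replicate 1 is lowest in both NC and NK for the class I probes and highest in both for L08792 (1.92 and 2.17).

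Most class I probes rose and fell together over the 16 arrays. The correlation between class I probes had a median of 0.78 over 105 pairs, as a description of arrays that share group differences and of probes that share sequence. EF489531 and TC16824 followed the others less closely, with correlations down to -0.21 for EF489531. EF489531 was lowest in NK3 (-6.32) and highest in NK2 (-1.30), and TC16824 was the class I probe that was lower in HC than in NC (log2 difference -0.33, -1.60 to 0.94). Between class I and class II probes the median correlation was 0.63 over 150 pairs.

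Other genes of antigen presentation were read from a list of 40, of which 11 had a probe named in the annotation, with 15 probes tested. In HC against NC, 7 of these 15 met the criterion and all 7 were higher, against the 4.54% given above for all probes, with a median of 0.56. They were the probes of B2M, PSME2, IRF1, IRF2 and PSMB8. B2M, the light chain of class I, read 4.19, 4.11 and 4.49 in NC and 4.10, 5.59, 5.23, 5.33 and 5.12 in HC on its probe A_70_P039591. HC1 was again at the NC level while the other HC arrays were above it, and the log2 difference was 0.81 (0.19 to 1.43; adjusted p = 0.305). PSMB8, a subunit of the immunoproteasome, read -3.32, -2.93 and -3.21 in NC and -3.05, -0.28, -1.31, -0.43 and -1.79 in HC, a difference of 1.78 (0.63 to 2.93; adjusted p = 0.223). Without HC1, set aside after its values had been seen, 9 of the 15 met the criterion, all higher, against 5.71% of all probes. The groups then did not overlap for 7, against 5.36%. A_70_P039591 differed by 1.05 (limma, adjusted p = 0.0926) and PSMB8 by 2.20 (adjusted p = 0.0793). Without HC1 and HK1, the other B2M probe had an adjusted p of 0.0466.

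PSME2, a proteasome activator subunit induced by interferon, was 0.78 and 0.92 higher on its 2 probes. IRF1, a transcription factor that acts on class I promoters, read -3.75, -3.38 and -3.86 in NC and -1.31, 0.10, -2.05, 0.76 and -1.75 in HC. On IRF1 HC1 was above all NC arrays, unlike on B2M, PSMB8 and class I, and the log2 difference was 2.81 (1.14 to 4.49; adjusted p = 0.198). IRF2 was 0.57 higher. CTSS, which trims the class II invariant chain, differed by 0.49 and did not meet the criterion. The lysosomal enzymes CTSB, CTSD and LGMN differed by -0.06 to 0.11.

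In HK against NK, 4 of the 15 probes met the criterion, all higher, against the 2.81% of all probes given above. The count was 6 without HC1, 8 without HC1 and HK1, and 2 without HC2 and HK2. The 4 with all arrays were both B2M probes (0.77 and 0.75), PSMB8 (1.20) and IRF1 (1.75), with adjusted p-values of 0.9 or above. IRF1 and PSMB8 were low in HK1 and HK3 and high in HK2 and HK4. IRF1 read -3.83, -0.01, -3.42 and -1.12 in HK1 to HK4, against -3.96 to -3.67 in NK. None of the 15 met it in NK against NC or in HK against HC.

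**Figure D5:**
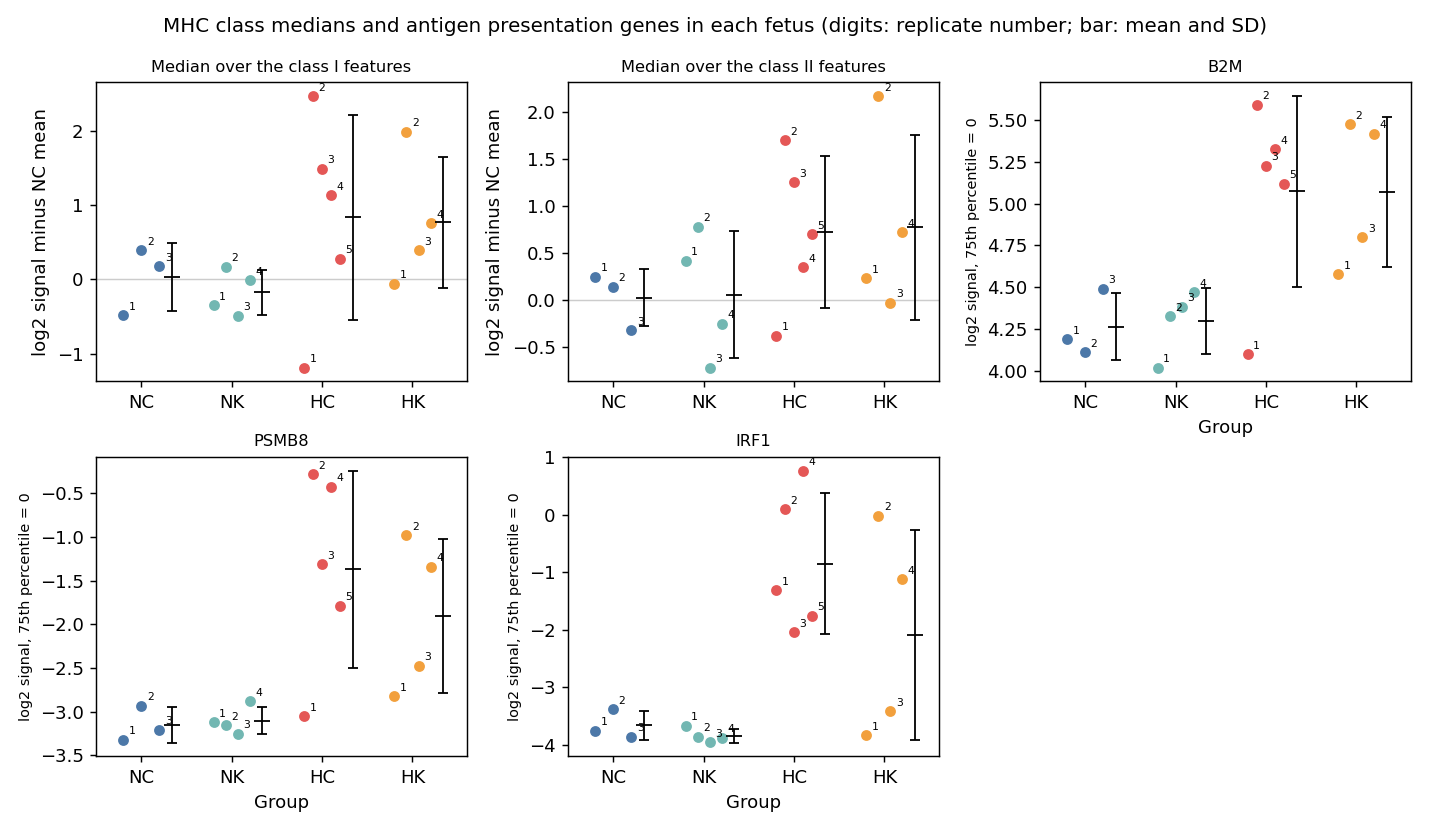
Median over the class I and class II probes as the log2 difference from the NC mean (first 2 panels) and log2 signal of B2M, PSMB8 and IRF1 (array 75th percentile at 0) in each fetus by group, with replicate numbers beside the points and bars for the mean and SD. HC1 lies with the NC and NK arrays for B2M (4.10) and PSMB8 (-3.05) and apart from them for IRF1 (-1.31).

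Some markers of immune and endothelial cells met the criterion between hypoxia and normoxia, in comparisons that differed by cell type. Of 23 microglia and macrophage markers, 5 had a probe, with 8 probes tested. Of these, 4 met the criterion as higher in HC against NC, against 4.54% of all probes. They were probes of CD14, FCER1G and FCGR1A, 1 of these genes with 2 probes. In HK against NK none of the 8 met it. In HK against HC all 8 were lower and 3 met it, against 235 of all 12543 probes as lower. They were those of CD14 (-1.10 and -1.05) and FCGR1A, while the MHC median there was -0.04. The log2 of the summed signal of the 5 markers lay between -0.99 and -0.65 in NC, -0.88 and -0.63 in NK, -0.26 and 1.08 in HC, and -0.79 and 0.04 in HK. CD14, a receptor for bacterial lipopolysaccharide, was high in HC1 (-1.43, against -3.57 to -3.05 in NC), where class I was low. Of 9 neutrophil markers, CATHL3 and LTF had a probe. Their summed level lay between -1.85 and 2.53 in HC and between -3.43 and -1.80 in NC, so these groups overlapped. It lay between -1.76 and 2.85 in HK and between -4.21 and -1.90 in NK. Neither probe met the criterion in HC against NC, and both met it as higher in HK against NK. Of 14 markers of T and natural killer cells, 6 had a probe. Of their 8 tested probes, 3 met the criterion as higher in HC against NC, against the same 4.54%, and none in HK against NK. The probes of CD4 and CD28 were well above background on at most 2 arrays. The summed level of the 6 markers overlapped between all groups. Of 10 endothelial markers, 5 had a probe, with 6 probes tested. Of these, 3 met the criterion as higher in HC against NC, those of SELP and ICAM1. In HK against NK all 6 were higher and 2 met it, against 2.81% of all probes. The part of these cells in the MHC differences was not tested.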

How the data were processed

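RNA of fetal hippocampus was measured on 16 one-color Agilent ovine arrays, on 2 slides of 8 that each held all 4 groups. Per the file headers, Feature Extraction 10.1.1.1 subtracted background from the spot intensity and did not normalize between arrays. The authors also deposited log2 values, with equal quantiles on all arrays and an offset at low signals, and these were used as an alternative. The labels name limma and R 2.15.1. Here control spots and outlier-flagged spots were left out, log2 of the processed intensity was taken, the 75th percentile of each array was subtracted, and spots of a probe were averaged. The test took the 12543 of 15008 probes that 3 or more arrays marked as well above background. Group means were compared with limma 3.58.1 (R 4.3.3, two-sided, all 4 groups in the fit), with an unadjusted p under 0.05 as the criterion, as the study's methods name no adjustment, and the script was tested on simulated data.

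Groups and replicate numbers came from the labels. Same-numbered NC and NK arrays deviated together (correlations of 0.38, 0.31 and 0.20 over probes). For HC and HK arrays of the same number the correlations were 0.39, 0.31, 0.07 and 0.12. Between oxygen groups, same-numbered arrays had 0.08, 0.13 and 0.04 (NC and HC) and 0.03, 0.16, 0.12 and 0.26 (NK and HK). Only numbers 1 and 2 exceeded all of these, in NC with NK and in HC with HK. The members, the lists of genes and markers and the tests were chosen with earlier results of these data known. Values in every array are given for members that met the criterion or whose groups did not overlap in HC against NC or HK against NK, and for other members chosen after their values were seen. Of 27 member accessions, 3 were found in the RefSeq gene table, so names are those of the array annotation. Lists of B cells and oligodendrocytes had no tested probe. Alternatives were another background correction, scaling, filter, block, prior and set of arrays, and each array left out in turn. The number of arrays limits the precision.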

Additional observations from a re-analysis of the deposited data

Results flagged for a closer look

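In each group of 4 or 5 fetuses, the gap between the most extreme array and its neighbor was set against the range of the group by Dixon's criterion at the 95% level. Of 78 groups of MHC probe values examined, 3 exceeded it, which is not more than chance alone gives at that level. The groups share arrays and many probes ran together, so the count cannot be set closely against chance. M34676 in HC had HC1 as its lowest array, with a gap of 0.872 of the range. M34675 in HC also had HC1 as its lowest array, with a gap of 0.853 of the range. M34675 and M34676 overlap in sequence, as given above, and are not independent measurements. M34674 in NK had NK1 as its lowest array, with a gap of 0.962 of the range, and NC1 read as low as NK1 on this probe (0.43 and 0.77). The causes were not tested.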

How the results depend on the processing

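The number of MHC probes that met the criterion in HC against NC, 1 of 26 as reported, was 5 with normexp background correction, 2 with the slide as a block, 3 on the arrays of slide 2 alone, 7 with array weights, 2 with saturated spots left out and 0 by adjusted p. It lay between 0 and 10 when 1 array was left out, with the 10 reached without HC1, and was 11 without HC1 and HK1 together. In HK against NK the count of 3 was 0 with normexp and by adjusted p, 6 on the arrays of slide 2 alone, 6 with only the groups compared in the fit, 2 to 6 when 1 array was left out, with the 6 reached without HC1, and 12 without HC1 and HK1. In NK against NC it went from 0 to 2 on slide 2 alone, to 1 with array weights, and to 0 to 1 when 1 array was left out. In HK against HC it went from 0 to 1 with only the groups compared and to 1 with saturated spots left out, which also gave 1 for the interaction. The share of all probes that met the criterion can also change with the setting. Apart from the shares given above, it is not set beside these counts or those below. Such counts therefore cannot tell whether MHC probes exceeded that share.

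With the replicate number as a block, HC against NC gave 3, HK against NK 4 and the other comparisons 0. With the block within each oxygen group, NK against NC gave 1 and HK against HC gave 2. The remaining 140 counts stayed within 1.5 times those reported, and all 324 class medians moved by less than the within-group SD. That SD, 0.94 for class I and 0.83 for class II, is larger than the class medians reported with all arrays. A median could fall to 0 within it, so this bound does not show that the medians are stable. Of the named probes, 111 values kept their side of the criterion, 17 lost it in the same direction and none was reversed. The alternatives that pair arrays within oxygen groups, leave out HC1 and HK1 or HC2 and HK2 together, or leave out saturated spots were chosen after seeing the data. The causes were not tested.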
